A study of Mus musculus with 6 samples.

Results

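This account covers 34 genes of cellular defence against oxidants, leaving out glutathione synthesis and the glutathione peroxidases. They were measured in Min6, a line of insulin-producing tumour cells from mouse that stands in for beta cells. The genes were taken by name from the Nrf2 pathway, the thioredoxin, peroxiredoxin and glutaredoxin families, the superoxide dismutases and catalase. The rest came from both branches of the pentose phosphate pathway, which supplies NADPH, the sestrins and the methionine sulfoxide reductases. All 34 were found once each among the 53379 gene identifiers of the deposited count tables, and all 34 passed the filter on low counts. RNA was measured by RNA-seq in 6 libraries, 3 after transduction with lentiCRISPR v2, which delivers Cas9 and a guide RNA (gRNA), here directed at Jund, and 3 with a gRNA for the Rosa26 locus, the negative control. Jund encodes JunD, a subunit of the AP-1 transcription factors. Both groups were at passage 28, grew in high glucose medium and were collected 8 days after transduction and 30 hours into glucolipotoxic conditions, a metabolic stress of beta cells, so the control cells were stressed too. The labels name neither a clone nor a selection step, and call the libraries triplicates without saying how the cultures were separated. The p-values then reflect no more than how these samples vary, and that variation could be technical.

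Nrf2, the product of Nfe2l2, is a transcription factor that the adaptor protein Keap1 holds in the cytosol and marks for degradation. When oxidants modify Keap1, Nrf2 accumulates, pairs with small Maf proteins and binds antioxidant response elements, sites whose core resembles the AP-1 site and which Bach1 occupies as a repressor. Its targets remove oxidants in a chain: superoxide dismutases make hydrogen peroxide from superoxide, peroxiredoxins and catalase remove the peroxide, thioredoxin and its reductase restore the peroxiredoxins, and the pentose phosphate pathway supplies the NADPH. Beta cells are known for low catalase and for reliance on the thioredoxin and peroxiredoxin route.

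Because the gRNA targets an AP-1 subunit, the 250 bases before each RefSeq start (GRCm38.p6) were searched on both strands for the letters of the AP-1 site, TGANTCA, and of the antioxidant response element core, TGACNNNGC. A single stretch can hold both, as one does before Prdx1. Of the 30 members with an entry, 4 held an AP-1 match (13.3%, against 7.82% of 27025 genes) and 6 a response element match (20%, against 11.5%). Hmox1, Txnl1, Prdx6 and Msra had no entry. Of the matching windows, 6 are printed below as examples, 1 for each of 6 members, with 10 bases on each side, 5′ to 3′ on the gene's strand and with the matched letters in capitals. The AP-1 matches come first and the response element matches last, and some of the latter are on the opposite strand.
Srxn1, AP-1 letters, chr2:152105469-152105495, plus strand: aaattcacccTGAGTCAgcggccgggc
Osgin1, AP-1 letters, chr8:119437040-119437066, plus strand: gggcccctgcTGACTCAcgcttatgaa
Glrx, AP-1 letters, chr13:75839777-75839803, plus strand: taggaagtacTGACTCAtaccaaaatg
Prdx1, response element letters, chr4:116685456-116685484, plus strand: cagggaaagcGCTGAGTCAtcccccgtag
Nfe2l2, response element letters, chr2:75704885-75704913, minus strand: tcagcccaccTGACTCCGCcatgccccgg
Sod1, response element letters, chr16:90220696-90220724, plus strand: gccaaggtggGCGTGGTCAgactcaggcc
A match describes letters in a window and is not a bound site.

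The libraries held 41071566 to 50024931 counts. Jund itself had 39.3, 34.5 and 30.4 CPM (counts scaled to a common library total) in Rosa26 gRNA replicates 1 to 3, a mean of 34.7 ± 4.46 (SD, n = 3). The JunD gRNA libraries had 22.6, 25.1 and 26.9 CPM, a mean of 24.8 ± 2.15 (SD, n = 3), and no JunD gRNA library reached the lowest Rosa26 gRNA library. Its log2 fold change of -0.47 did not pass across all genes with 6 libraries (edgeR quasi-likelihood, Benjamini-Hochberg adjusted p = 0.417) and passed without Rosa26 gRNA replicate 1 (-0.38, adjusted p = 0.00773). That library stood apart: the structural RNAs Rn7sk, Rpph1, mt-Rnr1 and mt-Rnr2 summed to 4460 CPM there, where the other 5 libraries had between 1023 and 1301, and 8 beta-cell markers summed to 42234 CPM, where the others had between 72867 and 81214. Among the remaining 5 libraries mt-Rnr1 and mt-Rnr2 fell with the JunD gRNA (-0.20 and -0.19, edgeR adjusted p = 0.0253 and 0.0242), Rn7sk did not pass (-0.86, adjusted p = 0.0792), nor did Rpph1 (-0.56, adjusted p = 0.520). The beta-cell markers Pdx1, Nkx6-1, Slc2a2 and Ins2 rose there (0.37, 0.21, 0.29 and 0.11) and Iapp fell (-0.11), and the part of these shifts in the members' values was not tested. The beta-cell markers were abundant in every library, whereas acinar, macrophage, endothelial and fibroblast markers summed to at most 0.0974, 0.463, 2.02 and 3.66 CPM. Sst of delta cells ranged from 2.14 to 8.23 CPM, and Gcg, the glucagon gene of alpha cells, from 523 to 686 CPM. Ductal markers were present through Krt19, with 49.8 to 62.5 CPM, and Sox9 had at most 0.0730 CPM. In RNA from whole cultures, fewer cells with a transcript and less of it per cell cannot be told apart. Log2 fold changes and calls are given with all 6 libraries and without Rosa26 gRNA replicate 1, levels per length as means of all 6, and the words "rose" and "fell" are used only for genes past an adjusted p of 0.05.

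Levels per length of annotated exon spanned a wide range, with thioredoxin at the top and catalase at the bottom. Txn1, cytosolic thioredoxin, averaged 109.7 CPM per kilobase over the 6 libraries, and Prdx4, the peroxiredoxin of the endoplasmic reticulum, 87.6 CPM per kilobase. Sesn2 (53.2), Taldo1 (51.1), Srxn1 (43.4), Prdx2 (39.2), Sod1 (34.6) and Prdx5 (33.9) followed on the same scale. The ranges of Txn1 and Prdx4 overlapped, as did those of neighbours from Sesn2 to Prdx5, whereas Prdx4 (65.9 to 96.0) lay above Sesn2 (47.1 to 56.6) in every library. Cat, which encodes catalase, had 0.452 CPM per kilobase and a range of 0.275 to 0.555, apart from every other member but Txnrd3, the thioredoxin-glutathione reductase of testis, at 0.696 with a range of 0.504 to 0.860. Msra (1.99) and Glrx2 (2.11) stood next. Catalase was low with either gRNA, at 1.21 ± 0.237 CPM (SD, n = 3) and 1.153 ± 0.385 CPM (SD, n = 3). Levels per kilobase use all annotated exons of a gene and are too low where a long exon is little used, as may apply to the 10008 exon bases of Sod2.

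**Figure D1:**
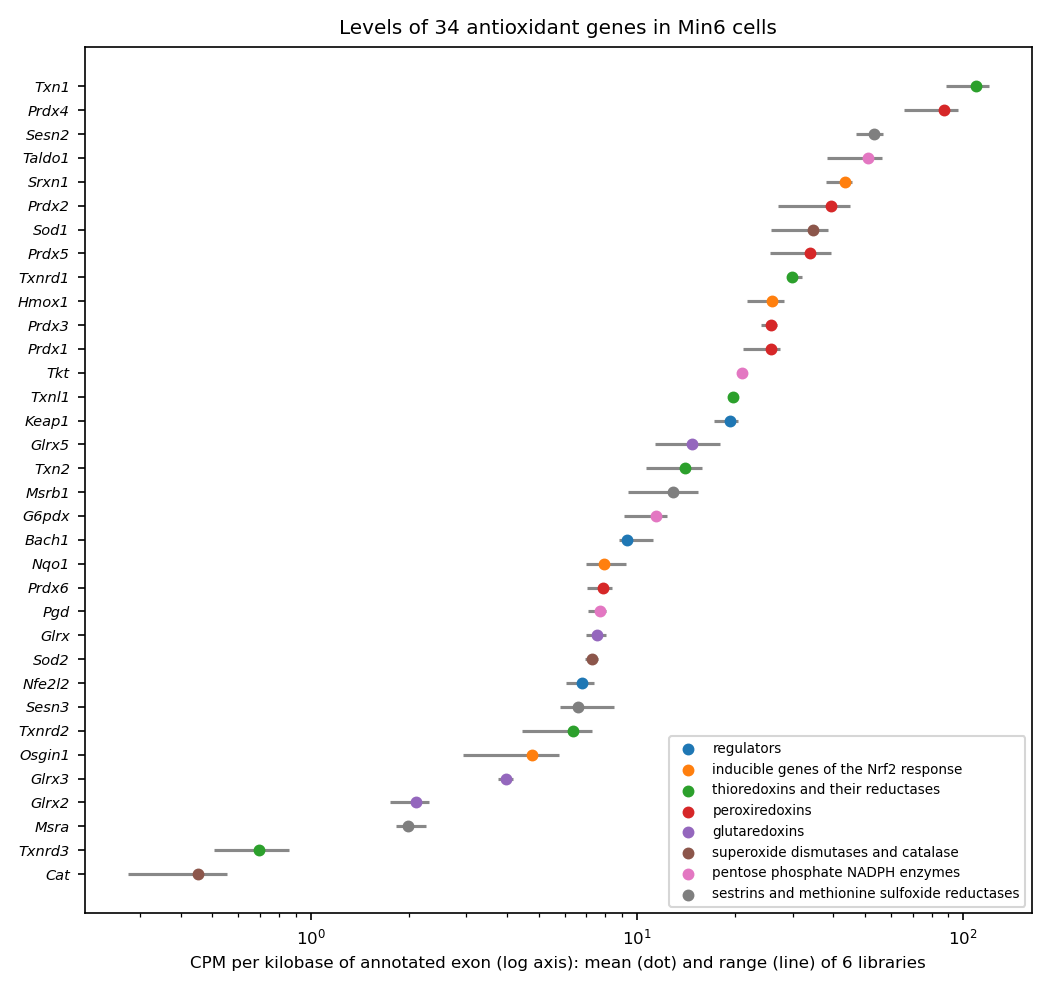
Level of each of the 34 genes in CPM per kilobase of annotated exon, on a log axis, with the mean of 6 libraries as a dot coloured by role and the lowest and highest library as a line. Txn1 and Prdx4 are at the top, at 109.7 and 87.6, and Txnrd3 and Cat at the bottom, at 0.696 and 0.452.

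The question of the comparison is which of these genes differ in stressed beta cells after the targeting of Jund. With all 6 libraries edgeR called 0 of the 34 higher and 0 lower, as it did over all 17767 genes tested (0.00% in each direction), and 7 members had an unadjusted p under 0.05 with a positive change (background 5.41%) and 0 with a negative one (background 6.51%). Every member had an adjusted p of 0.417 or more. Under DESeq2 on the same libraries 0 of 34 were called too (background 0.377%), under limma-voom with sample weights (background 1.65%) and under edgeR with no low-count filter (background 0.292%). Without Rosa26 gRNA replicate 1, Keap1 rose and 0 fell, so 2.94% of the members were called where 2.86% of 18296 genes were (1.45% higher, 1.40% lower). That share is close to the background. At an unadjusted p under 0.05 these 5 libraries had 11 members higher (background 8.31%) and 1 lower (background 7.59%). Leaving out any other single library gave 0 member calls.

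The members' changes were small. Log2 fold changes lay between -0.17 and 0.48 with 6 libraries and between -0.16 and 0.29 with 5, and their median absolute size was 0.11 and 0.07, below the 0.16 and 0.11 of all genes tested. The approximate 95% interval of the log2 fold change stayed within a 1.5-fold change either way for 28 of 34 members with 6 libraries and for 33 of 34 with 5, where Cat was the exception. Those intervals are per gene and not widened for the number of genes. The sign leaned one way: 27 of 34 log2 fold changes were positive with 6 libraries (79.4%, against 48.9% of all genes) and 27 of 34 with 5 (79.4%, against 49.2%), and 22 were positive in both. The median was 0.11 with 6 libraries and 0.05 with 5, and the median of all genes tested was -0.01 and -0.00301. The 3 JunD gRNA libraries lay above all 3 Rosa26 gRNA libraries in CPM for 8 members (23.5%, background 11.6%) and below them for 1 (2.94%, background 12.8%). Without Rosa26 gRNA replicate 1 these were 11 members (32.4%, background 15.7%) and 2 (5.88%, background 17.3%). The 8 were Osgin1, Prdx2, Prdx5, Prdx6, Glrx5, Sod1, Taldo1 and Msrb1, and the 1 was Nfe2l2.

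Among the regulators, Keap1 was the member that passed with 5 libraries, and Nfe2l2 the one with no overlap on the lower side. Keap1 (ENSMUSG00000003308.15, chromosome 9, 21229730 to 21239361, minus strand, GRCm38) stood at 95.4, 85.2 and 81.0 CPM in Rosa26 gRNA replicates 1 to 3 and at 94.2, 91.8 and 95.1 CPM in JunD gRNA replicates 1 to 3. Rosa26 gRNA replicate 1 was the highest of the 6 libraries, and the groups are apart only without it. Without it Keap1 rose by 0.18 ± 0.05 (SE of the log2 fold change), a fold change of 1.13 (edgeR adjusted p = 0.0448). With it the log2 fold change was 0.12 ± 0.07 (adjusted p = 0.466), and with a correction for GC content and exon length on the 5 libraries it was 0.13 (adjusted p = 0.125). The antisense gene Gm16754 overlaps an exon of Keap1 and had 570 counts in all, against 24711 for Keap1.

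Nfe2l2 (ENSMUSG00000015839.6, chromosome 2, 75675513 to 75704641, minus strand), the gene of Nrf2 itself, had 27.99, 27.5 and 26.5 CPM with the Rosa26 gRNA and 23.7, 25.5 and 22.95 CPM with the JunD gRNA. All 3 JunD gRNA libraries were below all 3 controls, by a narrow margin. The log2 fold change was -0.17 ± 0.08 (SE) with 6 libraries (edgeR adjusted p = 0.419) and -0.16 ± 0.07 with 5 (adjusted p = 0.249), and neither passed. Its approximate 95% interval, not adjusted for the number of genes, was -0.35 to 0.00892 with 6 libraries and -0.31 to -0.02 with 5. Bach1, the repressor at Nrf2 sites, had 69.3 CPM in Rosa26 gRNA replicate 1, while the remaining 5 libraries had 54.4 to 57.2 CPM, where the groups overlapped. Its log2 fold change was -0.08 with 6 libraries and 0.03 with 5, so its sign rests on that library.

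**Figure D2:**
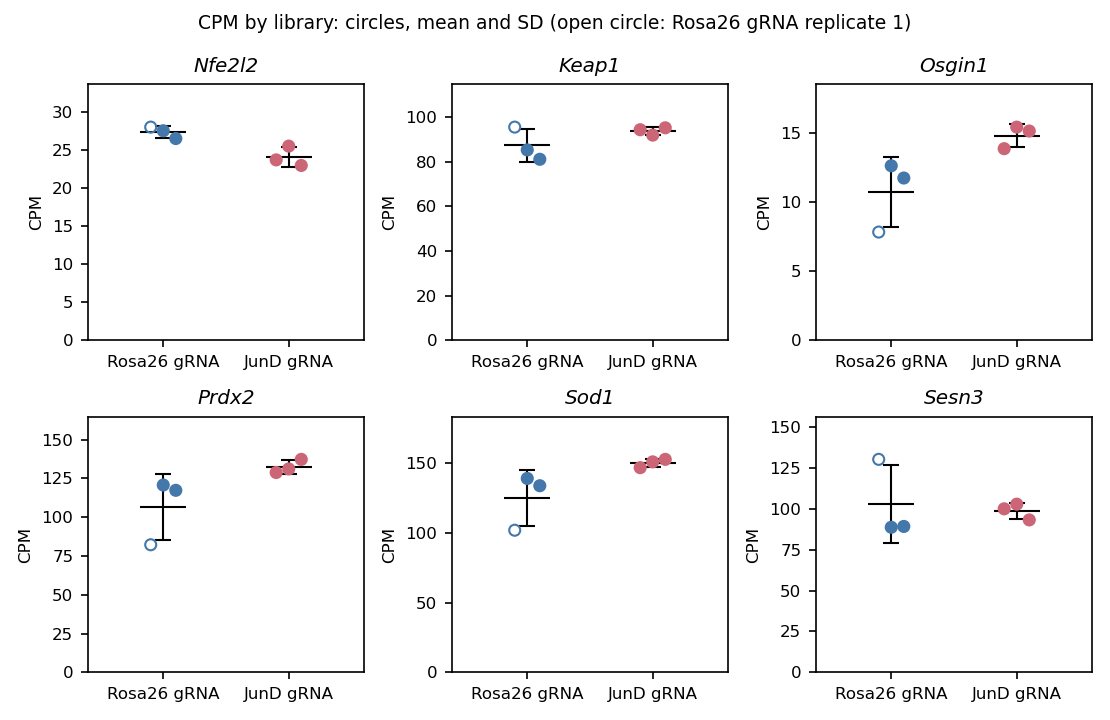
CPM of 6 members in each library (circles, Rosa26 gRNA replicate 1 open) with the group mean (long bar) and SD (whiskers), n = 3 per group, on axes that start at 0. Nfe2l2 is lower in all 3 JunD gRNA libraries, Osgin1, Prdx2 and Sod1 are higher in all 3, and for Keap1 and Sesn3 the open circle lies above every other control.

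Of the inducible genes of the Nrf2 response, 0 of 4 passed with 6 libraries (background 0.00%) or 5 (background 2.86%). Osgin1, an oxidative stress induced growth inhibitor, had the largest log2 fold change of the 34 in both fits. It had 7.83, 12.6 and 11.7 CPM with the Rosa26 gRNA and 13.9, 15.4 and 15.2 CPM with the JunD gRNA, with no overlap and with Rosa26 gRNA replicate 1 far below the other controls. The log2 fold change was 0.48 ± 0.17 (SE) with 6 libraries (edgeR adjusted p = 0.417) and 0.29 ± 0.09 with 5 (adjusted p = 0.0885). Nqo1, the quinone reductase often used as a readout of Nrf2, overlapped between groups, at 10.8 to 12.1 CPM against 11.6 to 14.4 CPM, with a log2 fold change of 0.22 in both fits. Hmox1, the heme-degrading enzyme, had 38.0, 49.4 and 48.0 CPM against 49.1, 43.3 and 45.4 CPM. The change was 0.04 (log2) with 6 libraries and -0.08 with 5. Srxn1, sulfiredoxin, which repairs overoxidised peroxiredoxins and whose promoter window with TGAGTCA is printed above, had 107, 125 and 128 CPM against 124, 128 and 121 CPM. The change was 0.06 (log2) and -0.02 in the same order. In both genes the JunD gRNA libraries lay inside the range of the 3 controls, whose lowest library was Rosa26 gRNA replicate 1.

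In the thioredoxin system, 0 of 6 members passed in either fit (background 0.00% with 6 libraries and 2.86% with 5). Txn1 had 92.9, 114 and 118 CPM with the Rosa26 gRNA and 117, 124 and 126 CPM with the JunD gRNA. On the log2 scale the difference was 0.19 ± 0.10 (SE) for 6 libraries and 0.08 ± 0.05 for 5. Txn2, the mitochondrial thioredoxin, had 44.8, 62.8 and 56.2 CPM against 60.4, 66.6 and 64.4 CPM, with log2 fold changes of 0.24 and 0.11. In both genes Rosa26 gRNA replicate 1 was the lowest library and the groups overlapped. Txnrd1, the cytosolic reductase and a classic Nrf2 target, ranged from 205 to 227 CPM over the 6 libraries with log2 fold changes of -0.02 ± 0.06 and 0.01 ± 0.04 in the 2 fits. Txnl1, a thioredoxin-like protein of the proteasome, ranged from 123 to 130.5 CPM (0.02 and 0.00273). In CPM and in these 2 fits both genes were among the steadiest members. With the GC and length correction Txnl1 had 0.24 with 6 libraries and 0.11 with 5 (edgeR adjusted p = 0.441 and 0.208). Txnrd1 had 0.01 and 0.04 with that correction. Txnrd2, the mitochondrial reductase, had its lowest level, 19.5 CPM, in Rosa26 gRNA replicate 1, with 27.5 to 32.0 CPM elsewhere, and its log2 fold change went from 0.24 with 6 libraries to 0.07 with 5. Txnrd3 had 1.43 to 2.44 CPM and log2 fold changes of 0.11 ± 0.24 and 0.06 ± 0.25 in the 2 fits.

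Of the 6 peroxiredoxins, Prdx2, Prdx5 and Prdx6 were higher in every JunD gRNA library than in any control (background 11.6%). Prdx1, Prdx3 and Prdx4 were not. None passed with 6 libraries (background 0.00%) or with the 5 (background 2.86%). Prdx2 (ENSMUSG00000005161.15, chromosome 8, 84969587 to 84974834, plus strand), a cytosolic peroxidase, had 82.2, 121 and 117 CPM against 129, 131 and 137 CPM. The log2 fold change was 0.32 ± 0.14 (SE) with 6 libraries (edgeR adjusted p = 0.417) and 0.16 ± 0.05 with 5 (adjusted p = 0.0600), just outside the threshold. It passed on the 5 libraries once corrected for GC content and length (0.18, adjusted p = 0.0158) and when the counts of its processed pseudogene Tdpx-ps1 were added to it (0.18, adjusted p = 0.0313), an alternative chosen after the data were seen. In that fit 2 members were called, Keap1 and Prdx2 (background 2.86%). Reads of Prdx2 can also be shared with Junb and Rnaseh2a, whose exons overlap its own on the opposite strand, since no strand setting is stated. Prdx5, found in mitochondria and peroxisomes, had 54.6, 74.4 and 68.5 CPM against 75.0, 78.0 and 84.2 CPM, and Rosa26 gRNA replicate 2 came within 1 CPM of the lowest JunD gRNA library. The log2 fold change was 0.28 ± 0.12 and 0.15 ± 0.06. Prdx6, which also has phospholipase activity, had 33.8, 36.5 and 35.2 CPM against 40.3, 40.1 and 40.2 CPM, with JunD gRNA libraries that were nearly equal. Its log2 fold change was 0.21 ± 0.07 with 6 libraries and 0.17 ± 0.06 with 5 (adjusted p = 0.140).

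The other 3 peroxiredoxins showed no such separation. Prdx4 had 139 CPM in Rosa26 gRNA replicate 1, while the remaining 5 libraries had 183 to 202 CPM, and its log2 fold change was 0.11 with 6 libraries and -0.05 with 5. Prdx3, the mitochondrial form, stayed between 35.5 and 39.7 CPM, with -0.03 and -0.04. Prdx1, the most studied Nrf2 target of the family, had 64.4, 80.1 and 80.9 CPM against 83.0, 83.4 and 76.7 CPM, with 0.12 and 0.01. Near-identical processed pseudogenes (Gm7204 and Gm21399) held 36.4% of the counts of Prdx1 and these copies together, and its value with them added was 0.13 and 0.03.

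Glutaredoxins reduce protein-glutathione mixed disulfides or carry iron-sulfur clusters. Of the 4, 1 was higher without overlap (background 11.6%). In either fit 0 passed (background 0.00% with 6 libraries and 2.86% with 5). Glrx5, a mitochondrial protein of iron-sulfur cluster assembly, had 41.9, 52.1 and 52.0 CPM against 57.3, 55.4 and 66.2 CPM. The log2 fold change was 0.31 ± 0.11 (SE) with 6 libraries and 0.20 ± 0.07 with 5 (edgeR adjusted p = 0.0938). Glrx, cytosolic glutaredoxin, ranged from 38.4 to 44.2 CPM and overlapped between groups, with 0.02 and -0.04, and Glrx2 ranged from 15.3 to 20.2 CPM, with 0.14 and 0.04. Glrx3, another iron-sulfur protein, ranged from 18.9 to 20.96 CPM (0.05 and 0.09), and its processed pseudogene Gm12669 held 68.4% of the counts of the pair, so its own level is uncertain.

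Superoxide dismutase 1 was higher in each JunD gRNA library than in any control (background 11.6%), whereas superoxide dismutase 2 and catalase overlapped. Sod1 (ENSMUSG00000022982.9, chromosome 16, 90220754 to 90226329, plus strand), the cytosolic copper-zinc enzyme, had 102, 139 and 134 CPM with the Rosa26 gRNA and 147, 151 and 153 CPM with the JunD gRNA. The log2 fold change was 0.28 ± 0.12 (SE) with 6 libraries (edgeR adjusted p = 0.417) and 0.14 ± 0.04 with 5 (adjusted p = 0.0753). It passed on the 5 libraries once corrected for GC content and length (0.17, adjusted p = 0.0135). With the processed pseudogene Gm8566, which held 24.8% of the counts of the pair, the value on the 5 libraries was 0.15 (adjusted p = 0.0538). Sod2, the mitochondrial manganese enzyme and a gene that NF-kB induces, ranged from 69.4 to 75.8 CPM, with a log2 fold change of -0.00780 ± 0.07 with 6 libraries and 0.00358 ± 0.05 with 5. Cat had 1.31, 0.940 and 1.38 CPM against 0.718, 1.29 and 1.45 CPM, and its error was too wide (-0.05 ± 0.32 with 6 libraries, 0.00454 ± 0.33 with 5) to tell a change of 1.5-fold in either direction.

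In the pentose phosphate pathway, Taldo1, transaldolase of the non-oxidative branch, was the member without overlap (background 11.6% on the higher side). It had 82.8, 110.8 and 110.9 CPM against 117, 122 and 122 CPM, with no overlap. The estimates were 0.26 ± 0.12 (log2 fold change, SE) for 6 libraries and 0.12 ± 0.04 for 5 (edgeR adjusted p = 0.143). Tkt, transketolase, stayed within 152 to 157 CPM in all 6 libraries, with 0.04 ± 0.06 and 0.02 ± 0.04. G6pdx, the first enzyme of the oxidative branch, which makes the NADPH, had 28.1, 37.4 and 38.0 CPM against 36.2, 36.6 and 35.6 CPM, and its log2 fold change was 0.08 with 6 libraries and -0.06 with 5. Pgd, the other NADPH-making enzyme of that branch, ranged from 45.6 to 51.7 CPM, with 0.07 and 0.00816. Of the 4 genes, 0 passed in either fit (background 0.00% with 6 libraries and 2.86% with 5). G6pdx shares exon sequence with Ikbkg on the opposite strand.

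Among the sestrins and the methionine sulfoxide reductases, Sesn3 turned on 1 library and Msrb1 did not. Sesn3 (ENSMUSG00000032009.8, chromosome 9, 14275067 to 14333101, plus strand), a FoxO-regulated inhibitor of mTORC1, had 130.2, 88.7 and 89.2 CPM against 99.9, 103 and 93.2 CPM. With Rosa26 gRNA replicate 1 the log2 fold change was -0.04 ± 0.13 (SE), and without it 0.15 ± 0.05 (edgeR adjusted p = 0.0957). It passed on the 5 libraries once corrected for GC content and length (0.23, adjusted p = 0.00166). Sesn2, which p53 and ATF4 induce, had 164 CPM in Rosa26 gRNA replicate 1, while the remaining 5 libraries had 182 to 197 CPM, which overlapped between groups, with 0.08 and 0.00782. Msrb1, a selenoprotein that repairs oxidised methionine, had 11.8, 15.5 and 15.6 CPM against 17.7, 17.6 and 19.3 CPM, with no overlap. Its log2 fold change was 0.36 ± 0.13 with 6 libraries and 0.23 ± 0.08 with 5 (adjusted p = 0.137). Msra, which acts on the other epimer, ranged from 7.85 to 9.69 CPM and overlapped, with 0.10 and 0.13.

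With GC content and exon length corrected for in those 5 libraries, Prdx2, Sod1 and Sesn3 rose, Keap1 did not pass and 0 fell. That is 8.82% of the members, where 3.18% of all genes were called (2.02% higher, lower 1.15%). With the same correction on all 6 libraries, 0 of 34 were called (background 0.0619%). The single call of the uncorrected fit and the 3 of the corrected one are therefore different genes.

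Rosa26 gRNA replicate 1 was the lowest of the 6 libraries for 21 members (61.8%, against 32.8% of all genes) and the highest for 7 (20.6%, against 38.3%). The median deviation of the members from their mean over the 6 libraries was -0.16 on the log2 scale in that library and -0.00573 to 0.08 in the other 5. The absolute log2 fold change was smaller without it for 27 of 34 members, and 24 of 34 kept their sign. The part of that library's composition in the 6-library values was not tested.

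**Figure D3:**
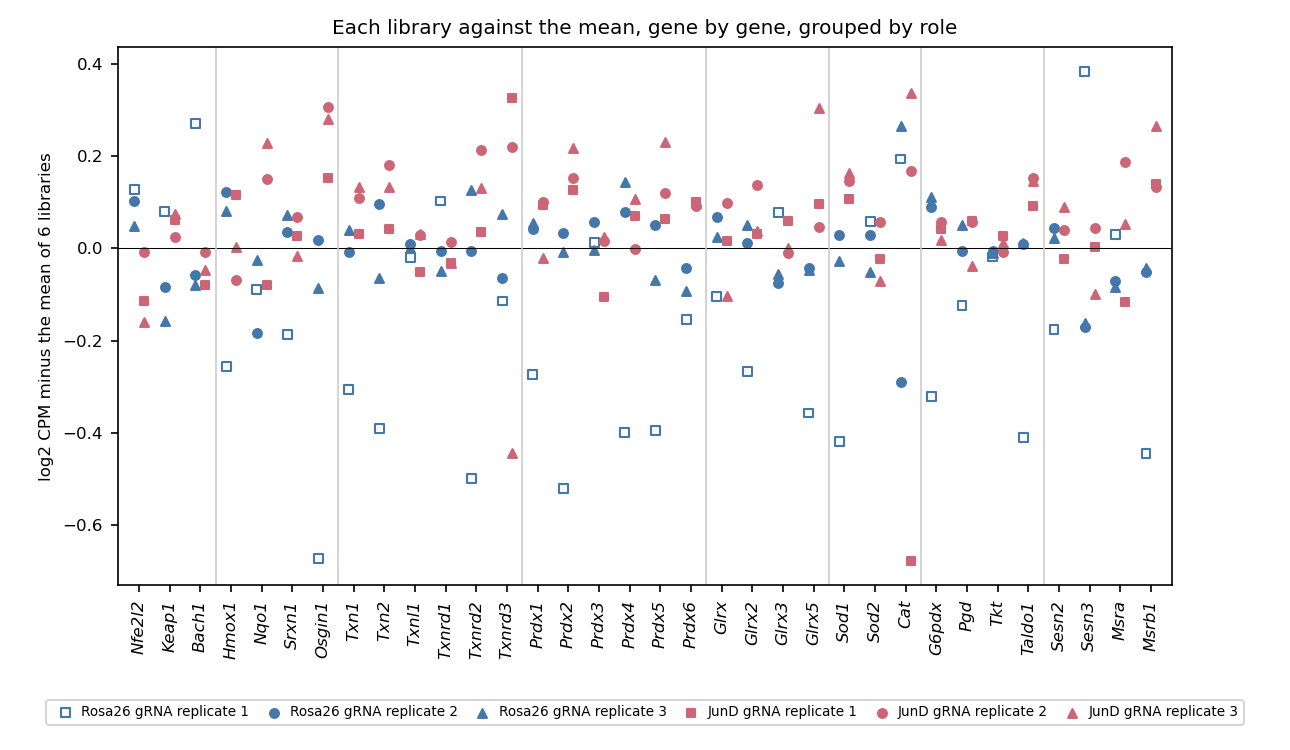
log2 CPM of each library minus the mean of the 6 libraries, for each of the 34 genes, ordered and separated by role. Open squares, Rosa26 gRNA replicate 1, lie lowest for 21 genes and highest for 7. Cat and Txnrd3, the members of lowest level, also have a JunD gRNA library far below the rest.

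**Figure D4:**
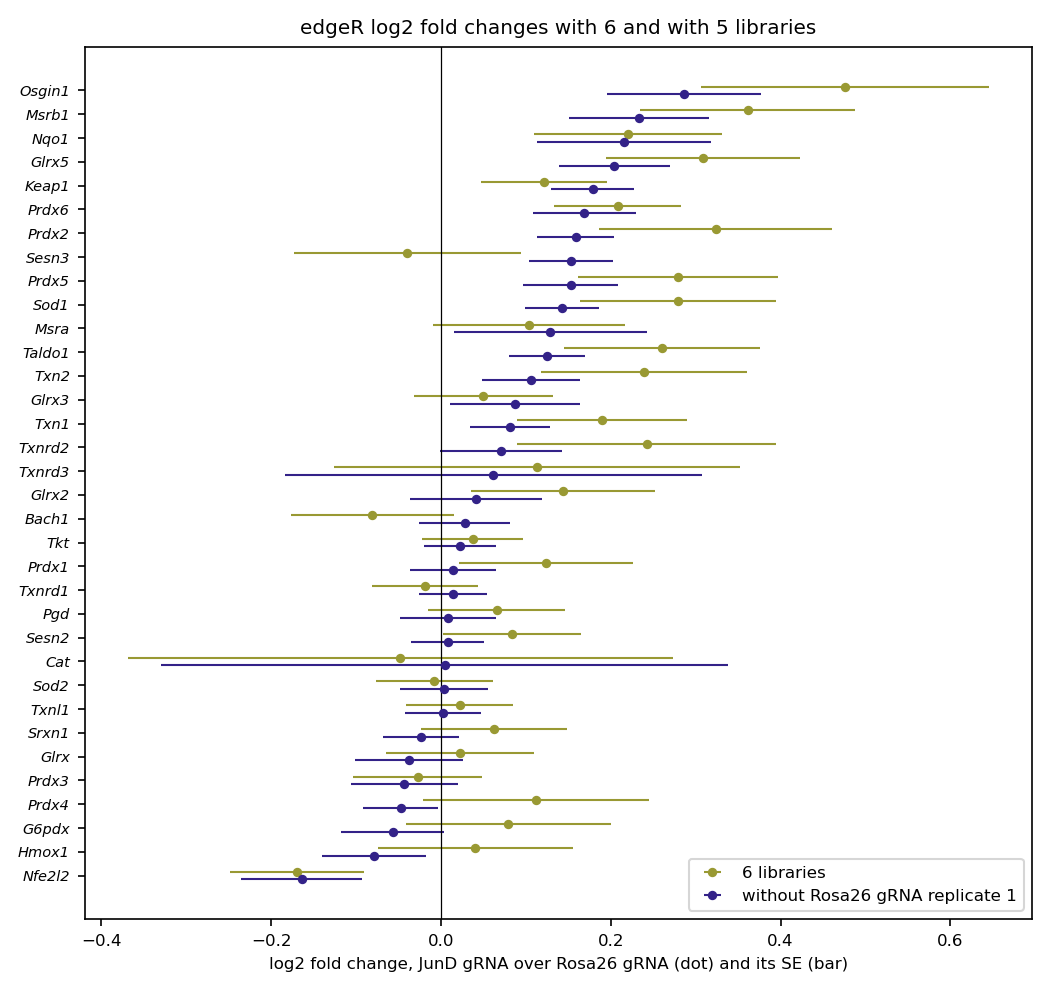
edgeR log2 fold change of each gene, JunD gRNA over Rosa26 gRNA, as a dot with its SE as a bar, with 6 libraries and without Rosa26 gRNA replicate 1, ordered by the latter. With 5 libraries the values run from -0.16 for Nfe2l2 to 0.29 for Osgin1, and for Sesn3 the 2 fits lie on opposite sides of 0.

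Other genes of the pathway were read in the same fits. Of 10 partners of Nrf2 and genes of its degradation, 0 passed with 6 libraries (background 0.00%) or with 5 (background 2.86%). Their median log2 fold change was -0.05 with 6 libraries and -0.02 with 5. Gsk3b, a kinase that marks Nrf2 for degradation, had -0.22 and -0.06, and Nfe2l1, a related transcription factor, had -0.08 and -0.06. Of 18 further Nrf2-linked genes of detoxification, iron and glutathione, 0 passed in edgeR with 6 libraries (background 0.00%). With 5 libraries 0 rose (background 1.45%) and 2 fell (background 1.40%). The 2 were Slc7a11, the cystine transporter subunit (-0.55 with 6 libraries, and -0.43 with 5, adjusted p = 0.00136), and Ephx1, epoxide hydrolase (-0.07, and -0.20, adjusted p = 0.0411), which was named after its value was seen. Slc7a11 had 41.9, 32.2 and 31.8 CPM against 25.5, 23.9 and 21.9 CPM. Its log2 fold change was larger in size than that of any of the 34 in both fits. With all 6 libraries Slc7a11 passed under DESeq2 (adjusted p = 0.0106) and limma-voom with sample weights (adjusted p = 0.00316). Ephx1 passed under neither (adjusted p = 0.833 and 0.129 in the same order). Abcc4, an export pump, had -0.21 and -0.14 and did not pass. Once GC content and length were corrected for on the 5 libraries, Slc7a11 and Ephx1 still fell (-0.31 and -0.20, edgeR adjusted p = 0.00621 and 0.0156). In that fit Gclm, named after its value was seen, rose (0.17, adjusted p = 0.0298). The median of the 18 was 0.02 with 6 libraries and 0.06 with 5.

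Of 11 further genes of redox repair, Park7, the peroxide-sensing protein DJ-1, rose with 5 libraries (0.19, edgeR adjusted p = 0.0362, 0.20 with 6; background 1.45% higher) and 0 fell (background 1.40%). Msrb2, the mitochondrial methionine sulfoxide reductase, had 3.23, 2.74 and 3.43 CPM against 4.38, 4.63 and 4.19 CPM, with no overlap and a log2 fold change of 0.51 and 0.52 that did not pass (adjusted p = 0.417 and 0.0922). Of 13 genes listed as sources of superoxide and peroxide, 7 could be tested and 6 stayed under 1 CPM in every library. The list is broad and takes in a nitric oxide synthase and COX-2. With 5 libraries 3 fell (background 1.40%) and 0 rose (background 1.45%): Nos2, the inducible nitric oxide synthase (-2.85, adjusted p = 0.00236), Ptgs2, COX-2 (-1.03, adjusted p = 1.63e-05), and Ero1lb, a protein disulfide oxidase of the endoplasmic reticulum (-0.14, adjusted p = 0.0186), which was named after its value was seen. With 6 libraries their log2 fold changes were -2.55, -1.11 and -0.24, and 0 of 7 passed in the filtered, uncorrected edgeR fit. On the same 6 libraries DESeq2 called Nos2 and Ptgs2 (adjusted p = 0.00891 and 2.26e-09, background 0.377%) and not Ero1lb (adjusted p = 0.330). Limma-voom with sample weights called Nos2, Ptgs2 and Ero1lb (adjusted p = 0.00259, 0.000144 and 0.0490, background 1.65%). Ptgs2 also passed in edgeR with the GC and length correction of 6 libraries (adjusted p = 0.0222). Once GC content and length were corrected for on the 5 libraries, Ero1lb did not pass (-0.07, edgeR adjusted p = 0.205). In that fit Maob, named after its value was seen, rose (0.18, adjusted p = 0.0455), and Park7, Nos2 and Ptgs2 still passed. Nos2 was low in every library, with 0.484, 1.12 and 1.11 CPM against 0.0718, 0.243 and 0.141 CPM. The members of the sources list that encode NADPH oxidases were at most 0.242 CPM.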

How the data were processed

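RNA-seq of 6 libraries, 3 per gRNA, was analysed. Each deposited table holds the raw count of every gene in 1 library; the submitters' processing notes name TopHat2, featureCounts and mm10. Versions, annotation release, strand setting and multi-mapping rule were not stated there. Symbols, positions, exon length and GC content came from GENCODE M21 (GRCm38), to which 53274 identifiers matched once version suffixes were dropped. All genes passing filterByExpr were fitted on group with quasi-likelihood tests (edgeR 4.0.16, R 4.3.3, TMM), adjusted by Benjamini-Hochberg at 0.05. SE is the absolute log2 fold change over the root of F. Alternatives were library-total and RLE scaling, DESeq2 1.42.0, limma 3.58.1 voom with sample weights, no filter, a replicate block, each library left out, a spline correction (5 degrees of freedom each) for GC content and exon length, and counts summed over pseudogene copies sharing at least 100 bases at 95% identity (BLAST 2.17.0). The last, and the correction of 6 libraries, were chosen after seeing the data. The summing left out Glrx2 and Sod2, which share such stretches with 49 and 19 genes. The procedure was tested on simulated counts. The members, lists and named-gene rule (all members, Jund, and the 2 genes of smallest p in each other list) were chosen with earlier results of these data known.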

Additional observations from a re-analysis of the deposited data

How the results depend on the processing

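Calls among the 34 members stayed at 0 in both directions under library-total and RLE scaling, DESeq2, limma-voom with sample weights, no low-count filter, the GC and length correction of 6 libraries and summed copies in 6 libraries. Leaving out 1 library gave 0 to 1 member call, the 1 being Keap1 without Rosa26 gRNA replicate 1. Without that library, the correction gave 3 member calls and summed copies gave 2. Over all genes, against 0, there were 67 calls with DESeq2, 293 with voom weights, 86 with no filter, 11 with the correction of 6 libraries, 581 with it and 523 with summed copies on 5 libraries, and 0 to 523 on leaving out 1 library. In the other redox lists the same settings gave 3, 4, 3, 1, 7 and 6 calls, and 0 to 6 on leaving out 1 library. The Jund log2 fold change was -0.47 with DESeq2, -0.41 with voom weights, -0.45 with no filter, -0.51 with the correction and -0.38 with summed copies on 5 libraries, which passed the threshold, and -0.67 with the correction of 6 libraries, which did not (edgeR adjusted p = 0.0743). It was -0.54 to -0.38 on leaving out 1 library, passing only without Rosa26 gRNA replicate 1, and did not pass under the scalings, the replicate block or summed copies in 6 libraries. The median log2 fold change of the members ranged from 0.05 to 0.14 over all settings.

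Signs of small changes turned over, and the cause was not tested. With the GC and length correction of 6 libraries these log2 fold changes had the other sign: Keap1 -0.024, Hmox1 -0.043, Srxn1 -0.012, Txnrd1 0.014, Prdx3 0.011, Sod2 0.18, Tkt -0.00371, Sesn2 -0.073 and Sesn3 0.14. With voom weights they were Bach1 0.018, Hmox1 -0.067, Srxn1 -0.00499, Txnl1 -0.000699, Txnrd1 0.013, Prdx4 -0.038, Glrx -0.012, Sod2 0.013, G6pdx -0.036 and Sesn3 0.15, and with no filter Sod2 0.0029. On 5 libraries they were Bach1 0.068, Hmox1 -0.089, Srxn1 -0.029, Txnrd1 0.037, Prdx4 -0.016, Sod2 0.096, Cat 0.0305, G6pdx -0.055, Sesn2 -0.052 and Sesn3 0.23 with the correction, and Bach1 0.028, Hmox1 -0.079, Srxn1 -0.023, Txnrd1 0.014, Prdx4 -0.047, Glrx -0.037, Sod2 0.00363, Cat 0.0046, G6pdx -0.057 and Sesn3 0.15 with summed copies. Over the 6 fits that leave out 1 library, the ranges of members that changed sign were Bach1 -0.13 to 0.028, Hmox1 -0.079 to 0.11, Srxn1 -0.023 to 0.12, Txnrd1 -0.041 to 0.014, Txnrd3 -0.032 to 0.32, Prdx3 -0.054 to 0.016, Prdx4 -0.047 to 0.22, Glrx -0.038 to 0.072, Sod2 -0.036 to 0.018, Cat -0.26 to 0.20, G6pdx -0.057 to 0.16 and Sesn3 -0.13 to 0.15.

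Whether replicate numbers pair the samples was not settled. Libraries with the same number had deviations correlated at 0.0554, -0.0393 and 0.0741, too weakly to decide it. The same number was the best match for Rosa26 gRNA replicates 1 and 3, and Rosa26 gRNA replicate 2 correlated best with JunD gRNA replicate 3 (0.0687). With the replicate block 0 members and 0 genes in all were called, the members' median was 0.10 and Jund -0.46. Depth limits Cat and Txnrd3 most, with 30 to 102 counts per library.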
